A study of Homo sapiens with 8 samples.

Results

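The small nuclear, small nucleolar and 7SL RNAs of a human endothelial cell line were followed through weightlessness in orbit, a centrifuge in orbit and a ground facility. Members were taken from the gene symbols of the deposited matrix: every row that starts with SNORD, SNORA, SCARNA, RN7SL, RN7SK, RNU or RNY, or that equals U6. The rule found 216 of the 16153 rows. They are 55 SNORD, 49 SNORA and 13 SCARNA symbols, 54 RN7SL symbols (RN7SL1, RN7SL2 and 52 with the P that marks a pseudogene), 13 RN7SK symbols (RN7SK and 12 pseudogenes), 31 RNU or U6 symbols (27 of them pseudogenes) and 1 RNY pseudogene. The rule used names only, not measured values.

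These RNAs work as the cores of RNA-protein particles rather than as templates for protein. The C/D box RNAs (SNORD) guide methylation and the H/ACA box RNAs (SNORA) guide pseudouridylation of ribosomal RNA, and SCARNA genes make the guides of Cajal bodies, which modify spliceosomal RNAs. Most snoRNAs are cut from the introns of a host gene. 7SL RNA is the scaffold of the signal recognition particle, which brings nascent secreted and membrane proteins to the endoplasmic reticulum; 7SK RNA holds the elongation factor P-TEFb inactive; most RNU genes encode spliceosomal RNAs, while U7 (RNU7) acts in forming the 3′ ends of histone mRNAs; Y RNAs bind the Ro protein. 7SL, 7SK, U6 and the Y RNAs are made by RNA polymerase III, and copies of them are scattered through the human genome as pseudogenes, often inside introns of unrelated genes.

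The cells were HMEC-1, an established line of human dermal microvascular endothelial cells immortalised with a viral antigen, so 1 transformed line stands for the endothelium. In space_microg (3 libraries) cells were weightless on the International Space Station, in space_1g (2 libraries) they flew in the same incubator inside its centrifuge at 1 g, and in ground (3 libraries) they stayed at 1 g in a facility in the home laboratory. All 3 groups shared seeding on gelatin-coated plastic coverslips at 37 °C with 10% serum, the automated culture units, medium changes at the same times, a fixative for RNA and storage at 6 °C, per the labels. Fixation in orbit and the return flight are described for the flown cells. Whether replicates came from separate cultures is not in the labels. A p-value here thus reflects the spread among these libraries alone, and that spread may be technical.

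The libraries held 24248964 to 35388757 reads in listed genes, and 1 read was worth 0.0285 to 0.0398 of the deposited unit, CPM (reads scaled to library size). On the first principal component of 16103 genes, with 61.9% of the variance, space_1g replicate 1 scored 60.7 and ground replicate 3 scored 64.7, against -31.1 to 1.51 in the other 6 libraries. Results are therefore also given without that pair. All 10 endothelial markers looked for were measured, among them PECAM1 and CDH5. Their summed level was 1312 to 1941 CPM in space_microg, 1436 to 1580 in space_1g and 1860 to 2247 in ground. It lay below every ground library in both space_1g libraries, and in space_microg only replicate 1, at 1941 CPM, reached the ground range. By gene the markers were lower in both flight groups. The median difference from ground, on the log2(CPM + 1) scale, was -0.37 in each. Of the 10 markers 9 were negative in space_microg and 10 in space_1g, with 0 called by limma in either. Of fibroblast and mural markers 3 of 6 were measured, with sums of 139 to 266 CPM in space_microg, 119 to 275 in space_1g and 173 to 201 in ground. Of the epithelial and leukocyte markers looked for, 4 each, 0 matched a row of the table used here.

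Single values of these RNAs are uncertain for reasons that can be read from the annotation (GENCODE release 29 on GRCh38). Of the 216 symbols, 205 were found once. For 193 symbols the span of another gene on the same strand holds the RNA, so unspliced host RNA can add reads. For 51 an annotated exon of another same-strand gene overlaps, and for 26 a gene on the other strand does. How the authors' counting treated reads that match several copies or several genes was not stated in the labels or the submitters' notes.

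Copies of RN7SK and of RNU genes resembled their parent genes to varying degrees, and RN7SL copies were not compared. Identity was counted over the aligned columns between shared ends, so bases missing at an end did not lower it. The 12 RN7SK pseudogenes were 65.8% to 93.0% identical to RN7SK, and the 27 RNU pseudogenes 72.0% to 98.1% identical to their parent, with RNU6-37P the closest. RNU1-1 and RNU1-2, both U1 genes, were identical at 164 of 164 bases.

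RN7SL1, RN7SL2 and RN7SK made up nearly the whole signal. RN7SL1 had 3395, 2746 and 5880 CPM in space_microg, 4522 and 2576 CPM in space_1g, and 2414, 2085 and 8368 CPM in ground. RN7SL2 had 3007, 2574 and 5233 CPM in space_microg, 3843 and 2220 CPM in space_1g, and 2082, 1760 and 7666 CPM in ground. RN7SK had 2230, 2387 and 3077 CPM in space_microg, 2417 and 1312 CPM in space_1g, and 2120, 1684 and 4351 CPM in ground. For each of these genes ground replicate 3 was the highest library, space_microg replicate 3 the next, and the groups overlapped. In bulk RNA a lower value can mean fewer cells that make the RNA or less RNA per cell, which cannot be told apart.

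Together the 3 genes took 91.7% (ground replicate 2) to 97.9% (ground replicate 3) of the CPM of all 216 symbols. The sum over all symbols was 0.624% of the column total in ground replicate 2 and 1.96% in ground replicate 3, the lowest and highest of the 8 libraries. Per kilobase of annotated length, mean levels were 13372 CPM for RN7SL1, 11827 for RN7SL2 and 7462 for RN7SK. The next highest was SNORD114-20, at 160 CPM per kilobase, followed by SNORD114-21 at 75.7, SCARNA2 at 60.2, SNORA40 at 56.8 and SNORD3A at 54.2. This order depends on the annotated lengths, which need not be those of the mature RNAs. Only 3 symbols reached a mean of 100 CPM, 7 reached 10 CPM and 55 reached 2 CPM. The median symbol rested on a mean of 36.8 reads per library, and 73 of 216 on fewer than 30.

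RN7SL1 and RN7SL2 kept a nearly fixed ratio, 1.07 to 1.18 across the 8 libraries, with r = 0.998 on the log2(CPM + 1) scale. The ratio of RN7SL1 to RN7SK was looser, 1.14 (ground replicate 1) to 1.96 (space_1g replicate 2). Over the same 8 libraries RN7SL1 correlated with RN7SK at 0.87, SCARNA2 at 0.97 and SNORD3A, the U3 RNA that takes part in cleaving the ribosomal precursor, at 0.82. Outside the list, RMRP, the RNA of RNase MRP, reached 0.92 with RN7SL1 and RPPH1, the RNA of RNase P, 0.69. These are descriptions over shared libraries with no test, and the high value of ground replicate 3 enters most of them.

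**Figure D1:**
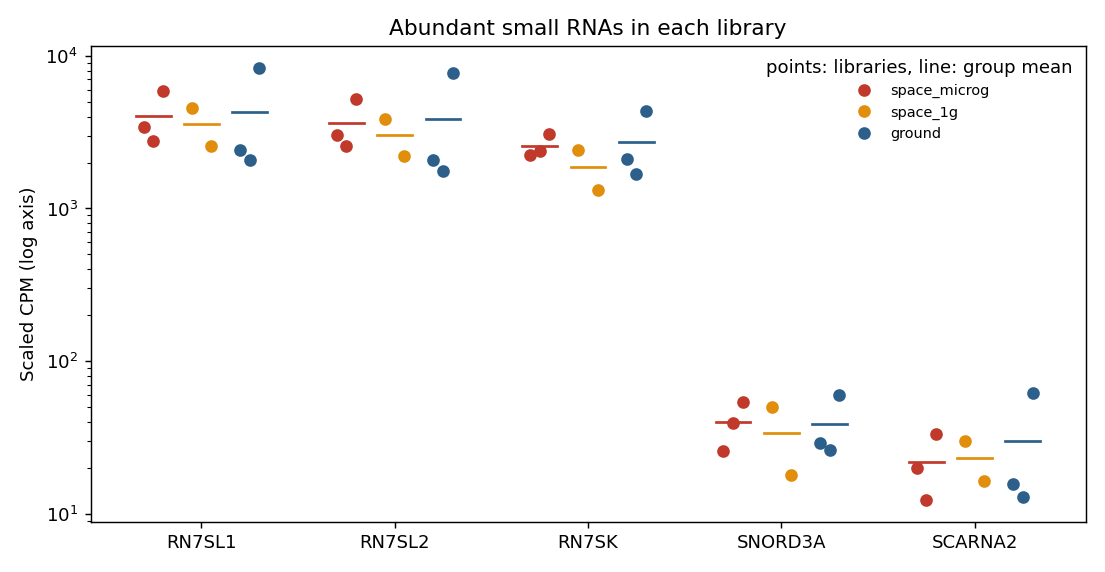
Scaled CPM (log axis) of RN7SL1, RN7SL2, RN7SK, SNORD3A and SCARNA2 in each library, coloured by group, with lines at the group means. In every gene shown the highest point is a ground library (ground replicate 3, for example 8368 CPM of RN7SL1), while the other ground libraries lie low.

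The 7SK RNA is printed because its copies make up a class of their own. It is annotated in GENCODE release 29 on GRCh38 at chr6:52995621-52995948, plus strand, and capitals mark the letters GATC. In RNA these letters occur in the hairpin bound by the P-TEFb inhibitor HEXIM1, but not every marked match need lie in the bound stretch. The first 300 of its 328 bases are shown.
RN7SK: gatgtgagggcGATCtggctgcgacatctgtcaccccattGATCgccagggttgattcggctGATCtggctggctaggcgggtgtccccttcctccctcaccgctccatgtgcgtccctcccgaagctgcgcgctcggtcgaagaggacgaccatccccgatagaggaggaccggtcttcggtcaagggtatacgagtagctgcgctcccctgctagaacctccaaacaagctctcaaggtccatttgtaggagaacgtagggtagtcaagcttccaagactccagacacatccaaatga
GATC was searched on the RNA strand and matched 3 times. Of 327 RNAs of 300 to 350 bases that the annotation types as snRNA or misc_RNA, 92.4% hold it. That set has 166 RNAs with a 7SK symbol, 91.6% of which hold it, and 161 others, with many 7SL copies among them, 93.2% of which hold it.

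Most RN7SL pseudogenes ran against RN7SL1 across libraries. Summed over the 52 RN7SL pseudogenes, the level was 76.6 ± 16.0 CPM in space_microg, 103 ± 4.82 CPM in space_1g and 97.4 ± 32.0 CPM in ground (mean ± SD, with 3, 2 and 3 libraries here and below). The lowest sum was 59.7 CPM in space_microg replicate 3 and the highest 131 CPM in ground replicate 2. Of these 52 symbols, 23 were lowest in space_microg replicate 3 and 22 in ground replicate 3, the libraries where RN7SL1 was highest. In ground replicate 2, where RN7SL1 was lowest, 30 of the 52 were highest. The RNU pseudogenes, of another family, leaned to the same libraries. Of these 27 symbols, 16 were highest in ground replicate 2, while 14 were lowest in ground replicate 3 and 8 in space_microg replicate 3. SCARNA symbols went the other way, with 8 of 13 highest in ground replicate 3. The pattern was thus not particular to copies of RN7SL1. The share of all genes at their extreme in these libraries was not counted.

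Across the 8 libraries 45 of the 52 RN7SL pseudogenes correlated negatively with RN7SL1, with a median r of -0.67. For the 45 with 1 measured host gene, the median r with that host was 0.48. The highest r with RN7SL1 was 0.92, for RN7SL471P, which has no host, and the next were 0.39 for RN7SL4P and 0.30 for RN7SL5P. RN7SL471P had 1.05, 0.671 and 1.38 CPM in space_microg, 2.02 and 0.868 CPM in space_1g, and 0.473, 0.478 and 5.18 CPM in ground, so ground replicate 3 stood far above the rest. These correlations have no test, and all points share the libraries' scaling. The share of all genes that correlated negatively with RN7SL1 was not counted.

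RN7SK pseudogenes summed to 20.0 ± 2.38 CPM in space_microg, 26.2 ± 0.844 CPM in space_1g and 26.3 ± 5.71 CPM in ground. Their median r was -0.25 with RN7SK (12 symbols) and 0.40 with the host (9 symbols). The most abundant were RN7SKP16, within PHC2, with a mean of 3.9 CPM, and RN7SKP70, within CLK4. RN7SKP70 had 3.28, 4.41 and 3.29 CPM in space_microg, 2.05 and 3.74 CPM in space_1g, and 2.91, 5.14 and 3.19 CPM in ground, with overlapping groups.

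Spliceosomal RNAs had low values, with a mean of 21.5 (RNU5E-1) to 28.9 (RNU1-1) reads per library for the symbols without a P. How reads shared by identical copies such as RNU1-1 and RNU1-2 were counted is not known, so the RNAs themselves need not be scarce. The 4 symbols without a P (RNU1-1, RNU1-2, RNU5E-1 and U6) summed to 2.94 ± 0.654 CPM in space_microg, 3.64 ± 1.57 CPM in space_1g and 3.25 ± 0.027 CPM in ground. The U6 symbol had 0.94, 1.23 and 0.335 CPM in space_microg, 1.2 and 0.604 CPM in space_1g, and 1.09, 1.2 and 0.153 CPM in ground. The 27 RNU pseudogenes held more, 27.7 ± 8.32 CPM in space_microg, 27.2 ± 0.211 CPM in space_1g and 31.8 ± 16.4 CPM in ground.

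Within ground the pseudogene sum was 47.1 CPM in replicate 2 and 14.5 CPM in replicate 3. The 3 most abundant RNU symbols were RNU7-80P, a U7 copy and so not of a spliceosomal RNA, RNU6-26P and RNU6-1016P, with means of 2.37, 2.19 and 2.16 CPM. RNU7-80P had 2.39, 3.03 and 2.08 CPM in space_microg, 2.37 and 2.42 CPM in space_1g, and 2.37, 3.55 and 0.766 CPM in ground. Only ground replicate 3 stood apart for it. The median r of the 27 RNU pseudogenes with their hosts was 0.41. RNY4P7, the single Y RNA symbol, had 0.57, 1.2 and 0.47 CPM in space_microg, 0.553 and 0.755 CPM in space_1g, and 1.06, 1.55 and 0.215 CPM in ground, and followed its host WDR33, a subunit of the machinery that cleaves pre-mRNA 3′ ends, at r = 0.95.

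The Cajal body RNAs sided with the abundant genes. The 13 SCARNA symbols summed to 63.3 ± 15.5 CPM in space_microg, 53.9 ± 17.0 CPM in space_1g and 75.3 ± 42.9 CPM in ground, and ground without replicate 3 averaged 50.7 CPM. Of the 13, 8 were highest in ground replicate 3, a share not counted over all genes. SCARNA2 had 20.1, 12.3 and 33.3 CPM in space_microg, 29.9 and 16.4 CPM in space_1g, and 15.7, 12.9 and 61.7 CPM in ground. SCARNA7, in the importin gene KPNA4, had 10.8, 9.54 and 11.8 CPM in space_microg, 8.61 and 5.78 CPM in space_1g, and 8.99, 6.57 and 18.9 CPM in ground. Both had overlapping space_microg and ground libraries. SCARNA10, in the condensin gene NCAPD2, had 4.33, 4.9 and 12.1 CPM in space_microg, 4.19 and 2.64 CPM in space_1g, and 5.39, 4.22 and 8.86 CPM in ground. Both space_1g libraries were below all others, though space_1g replicate 1 (4.19 CPM) lay below ground replicate 2 (4.22 CPM) by very little. The median r of 11 SCARNA symbols with their hosts was -0.12.

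In their summed levels the nucleolar guides were the steadiest classes. SNORD symbols summed to 146 ± 17.8 CPM in space_microg, 125 ± 26.8 CPM in space_1g and 137 ± 4.44 CPM in ground. SNORA symbols summed to 91.6 ± 11.9 CPM in space_microg, 84.1 ± 4.2 CPM in space_1g and 89.9 ± 16.5 CPM in ground. The ratio of the highest to the lowest library was 1.56 for SNORD and 1.45 for SNORA, against 4.17 for the RN7SL1 and RN7SL2 sum. SNORD3A had 25.8, 39.6 and 53.8 CPM in space_microg, 50.03 and 18.0 CPM in space_1g, and 29.3, 26.1 and 60.4 CPM in ground. It was high in the libraries with high RN7SL1. In ground replicate 3, where SNORD3A was highest, 17 of the 55 SNORD symbols were lowest and 8 highest. Of the 49 SNORA symbols 21 were lowest and 6 highest in that library. The steady sums thus do not mean that single symbols were steady. Ground replicate 3 stood apart on the first principal component, and the share of all genes lowest or highest in it was not counted. These counts thus do not set the members apart from other genes. Median r with the host was 0.30 for 46 SNORD and 0.23 for 41 SNORA symbols.

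**Figure D2:**
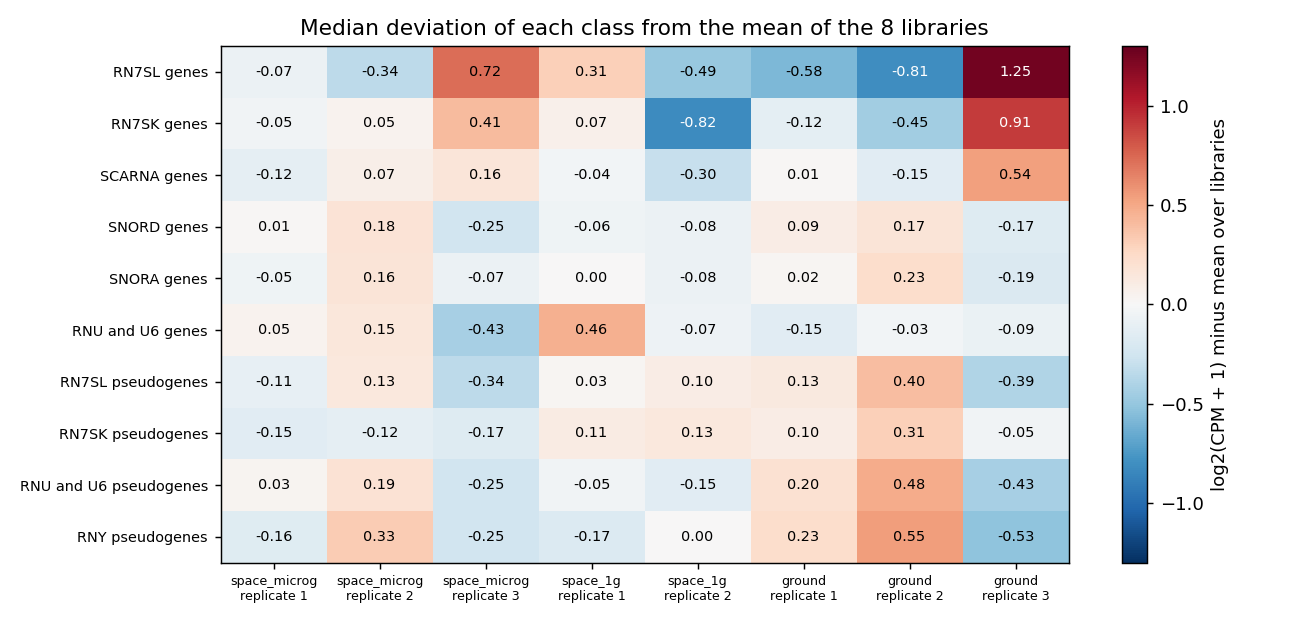
Heat map of the median deviation of each class (rows) in each library (columns), in log2(CPM + 1) minus the mean over the 8 libraries. RN7SL genes are at 1.25 and SCARNA genes at 0.54 in ground replicate 3, where RN7SL pseudogenes are at -0.39 and RNU and U6 pseudogenes at -0.43.

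Space_microg against ground asks how flight without gravity differs from culture on Earth. Among the members SNORD114-20 and SNORD114-21, C/D box RNAs with no known ribosomal target, were higher in space_microg, and SNORA54, an H/ACA box RNA within NAP1L4, was lower. None of these differences passed the test. Limma called 0 of the 211 members tested and 0 of 16103 genes (0% called), and no member had an adjusted p below 0.866. Before adjustment, 6 members had p under 0.05, 2 higher and 4 lower, or 2.84%, beside 4.32% of all genes (2.05% higher and 2.27% lower). EdgeR's quasi-likelihood test on the reads called 0 members and 0 genes, with 6 members at an unadjusted p under 0.05, beside 4.6% of all genes. DESeq2 called 0 members and 3 of 13214 genes with an adjusted p (0.0227%), with 7 members at an unadjusted p under 0.05, beside 5.44% of all genes.

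The libraries of both groups did not overlap for 7 members that were higher and 15 that were lower, beside 14.4% of all genes (7.88% higher and 6.53% lower). The median difference of the tested members was -0.09 on the log2(CPM + 1) scale, beside -0.02 over all genes. Its size and sign rested on single libraries: it was -0.19 without ground replicate 3, also with space_1g replicate 1 left out, and -0.004 without ground replicate 2. Leaving out space_microg replicates 1, 2 or 3 gave -0.06, -0.15 and 0.001. By class the medians were -0.13 for RN7SL, -0.28 for RN7SK, -0.06 for RNU and U6, -0.16 for SCARNA, -0.04 for SNORA and -0.02 for SNORD symbols. The RN7SK value came from the pseudogenes, 11 of 12 of which were below 0, while RN7SK itself differed by 0.03 ± 0.39. RN7SL1 differed by 0.13 ± 0.55 and RN7SL2 by 0.18 ± 0.56 (log2 difference ± SE).

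The result depends on how much the single libraries count. Array weights give less weight to libraries far from their group's mean. With them 7 of the 211 members tested were called, beside 615 of 16103 genes (3.82%), so the members did not stand out. The iteration that sets the weights did not converge. The 7 members were RN7SKP30, RN7SKP268, RNU4ATAC16P, SNORA54 and SNORD17 lower and SNORD114-20 and SNORD114-21 higher, with limma adjusted p from 0.0229 to 0.0471. Without space_1g replicate 1 and ground replicate 3, 0 members were called and 21 had an unadjusted p under 0.05, beside 12.8% of all genes.

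**Figure D3:**
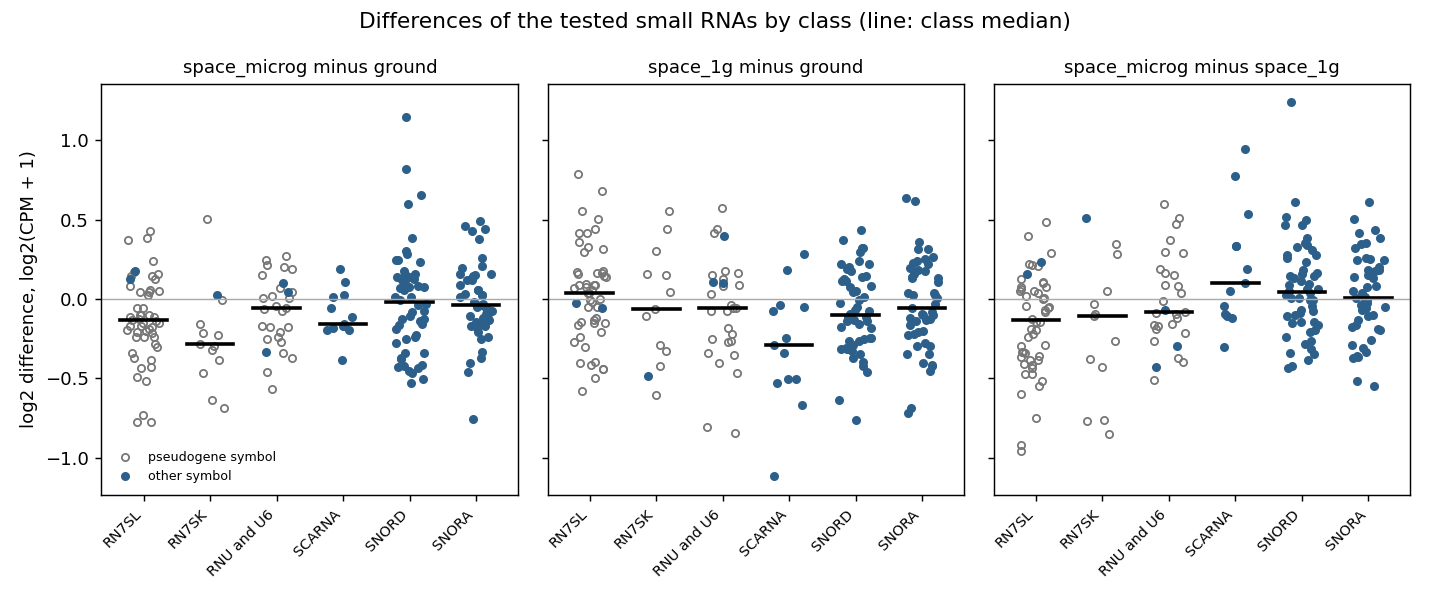
Log2 difference, on the log2(CPM + 1) scale, of each tested member by class in the 3 comparisons, with open points for pseudogene symbols and lines at class medians. SNORD114-20 is the highest SNORD point at 1.14 in space_microg minus ground, and SCARNA9 is the lowest SCARNA point at -1.11 in space_1g minus ground.

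SNORD114-20 and SNORD114-21 lie next to each other in the long non-coding gene MEG8, in an imprinted region of chromosome 14 that holds many near-repeats of 1 snoRNA. They are printed with SNORD114-17, the nearest other measured member, from chr14:100981004-100981075, chr14:100981975-100982046 and chr14:100974806-100974880, all on the plus strand. Capitals mark TGATGA and CTGA, the common forms of the C and D boxes that bind the methylation particle. TGATGA matched 2 times in SNORD114-21 and CTGA 2 times in SNORD114-17, so not every marked match need be such a box.
SNORD114-20: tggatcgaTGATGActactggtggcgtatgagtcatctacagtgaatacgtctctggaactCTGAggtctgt
SNORD114-21: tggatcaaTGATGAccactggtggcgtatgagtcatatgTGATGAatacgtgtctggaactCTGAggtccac
SNORD114-17: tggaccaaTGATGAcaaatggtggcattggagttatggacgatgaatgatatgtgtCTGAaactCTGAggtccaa
The letters were searched on the RNA strand, and matches of both motifs could overlap. TGATGA was in 59.4%, CTGA in 92.5% and both in 56.1% of 212 annotated snoRNAs of 65 to 80 bases. SNORD114-20 and SNORD114-21 were identical at 61 of 72 bases, and SNORD114-17 shared 54 of 75 aligned bases with SNORD114-20.

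SNORD114-20 had 15.8, 21.2 and 16.7 CPM in space_microg, 4.32 and 10.9 CPM in space_1g, and 9.14, 8.09 and 5.67 CPM in ground. Every space_microg library was above every other library. The difference from ground was 1.14 ± 0.32 (limma, adjusted p = 0.866, unadjusted 0.00673). It stayed between 0.97 and 1.27 when single libraries were left out.

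SNORD114-21 had 6.24, 8.43 and 7.45 CPM in space_microg, 4.97 and 4.83 CPM in space_1g, and 3.42, 2.59 and 5.64 CPM in ground. Again all space_microg libraries were the highest, with a difference from ground of 0.82 ± 0.27 (limma, adjusted p = 0.866, unadjusted 0.0141). The pair correlated with each other at r = 0.57 over the 8 libraries and with MEG8 itself at 0.03 and -0.25. MEG8 had 8.75, 8.37 and 7.45 CPM in space_microg, 7.83 and 6.42 CPM in space_1g, and 8.48, 9.0 and 7.91 CPM in ground.

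The other 12 snoRNAs within MEG8, of the SNORD112, SNORD113 and SNORD114 groups, did not share that order. They summed to 21.0, 27.0 and 11.1 CPM in space_microg, 21.6 and 16.5 CPM in space_1g, and 25.7, 27.1 and 13.1 CPM in ground. Their median difference between space_microg and ground was -0.02, with 5 above and 7 below 0. A second imprinted cluster, the 4 measured SNORD116 symbols in SNHG14 on chromosome 15, summed to 4.96, 5.57 and 4.39 CPM in space_microg, 5.62 and 5.78 CPM in space_1g, and 7.50, 6.81 and 8.49 CPM in ground. Both flight groups lay below every ground library in that sum, and the 4 differences of space_microg from ground were -0.43 to -0.19. SNORD116-19 had the largest of them, -0.43 ± 0.19 (unadjusted p = 0.0527).

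**Figure D4:**
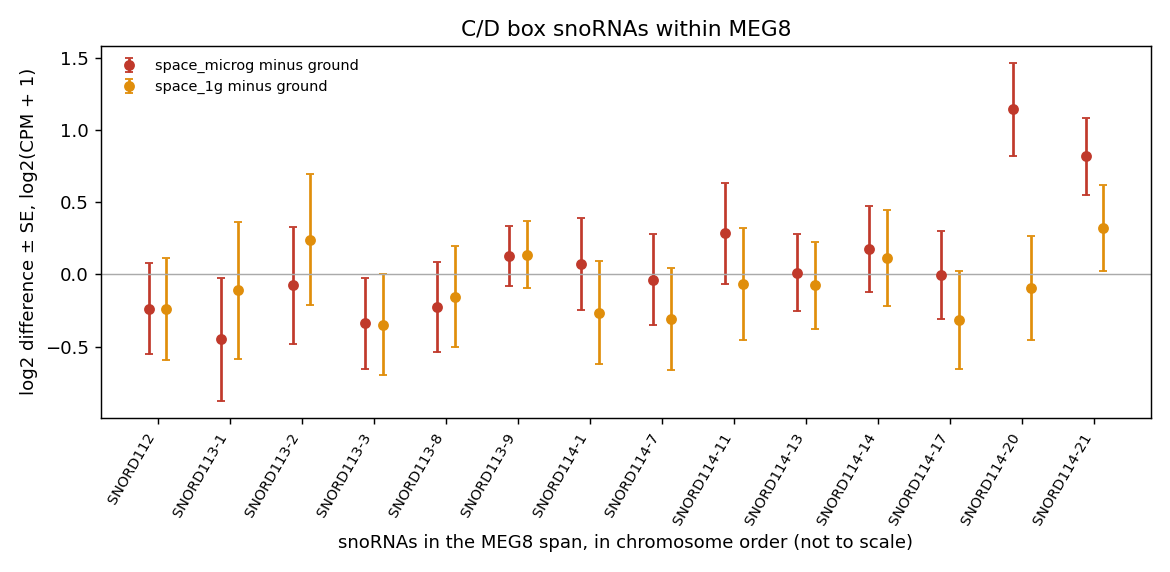
Log2 difference ± SE, on the log2(CPM + 1) scale, of the 14 measured snoRNAs in the MEG8 span in chromosome order, for space_microg minus ground and space_1g minus ground. SNORD114-20 (1.14) and SNORD114-21 (0.82) lie above the other 12 in space_microg minus ground, and the 14 values of space_1g minus ground lie between -0.35 and 0.32.

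Other members with the smallest p were mostly low. SNORD45A, in RABGGTB, was higher in space_microg than in ground by 0.65 ± 0.30, SNORA8 by 0.44 ± 0.23 and SNORA40 by 0.38 ± 0.22. In the other direction SNORA54 differed by -0.76 ± 0.27 (unadjusted p = 0.0207), RN7SL141P by -0.73 ± 0.26, RN7SKP268 by -0.69 ± 0.27 and RN7SL328P by -0.77 ± 0.32. SNORA54 had 1.79, 1.9 and 0.872 CPM in space_microg, 1.92 and 1.21 CPM in space_1g, and 3.13, 4.06 and 2.48 CPM in ground. Every flown library was below every ground library for SNORA54. Its host NAP1L4, a histone chaperone, had 210, 214 and 205 CPM in space_microg, 213 and 180.3 CPM in space_1g, and 198, 218 and 215 CPM in ground, with overlapping groups.

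Space_1g against ground asks how flight with gravity restored differs from culture on Earth. SCARNA9 was lower in space_1g, and RN7SL5P, a 7SL copy with no measured host, was higher. Limma called 0 members and 0 genes (0% called), and every adjusted p was 1.00. At an unadjusted p under 0.05 there were 6 members, 2 higher and 4 lower, or 2.84%, beside 1.55% of all genes (0.72% higher and 0.826% lower). EdgeR and DESeq2 called 0 members and 0 genes, with 5 members at that level in edgeR (1.41% of all genes) and 7 in DESeq2 (2.04% of all genes). The groups did not overlap for 11 members that were higher and 24 that were lower, beside 10.7% of all genes (4.94% higher and 5.73% lower). Without the pair of libraries that stood apart, 14 members had an unadjusted p under 0.05, beside 5.3% of all genes, and 0 were called. That leaves 1 space_1g library, which is assumed to vary like the libraries of the other groups.

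The median difference of tested members was -0.05, beside 0.01 over all genes. It was -0.22 without the pair that stood apart. Leaving out either space_1g library gave -0.11 (replicate 1) and -0.02 (replicate 2), and leaving out ground replicates 1, 2 or 3 gave -0.03, 0.07 and -0.16. By class it was -0.29 for SCARNA, -0.10 for SNORD, -0.06 for SNORA and 0.04 for RN7SL symbols. Of the 13 SCARNA symbols 11 were below 0. The class sum leaned on ground replicate 3: it averaged 53.9 CPM in space_1g and 50.7 CPM in ground without that library. The log2 ratio of summed SCARNA levels was -0.38, with -0.71 to 0.06 when single libraries were left out. SCARNA9, a long guide RNA within CEP295 on chromosome 11, had 3.16, 3.97 and 4.49 CPM in space_microg, 1.59 and 1.43 CPM in space_1g, and 3.6, 3.63 and 6.56 CPM in ground. Both space_1g libraries were below all 6 others. Its difference from ground was -1.11 ± 0.29 (limma, adjusted p = 1.00, unadjusted 0.00439) and stayed between -1.23 and -0.88 with single libraries left out. CEP295, a centriole protein gene, differed by -0.05 ± 0.24 in the same comparison.

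RN7SL5P had 5.01, 3.71 and 7.14 CPM in space_microg, 10.96 and 10.88 CPM in space_1g, and 4.7, 6.1 and 7.14 CPM in ground. It was higher in both space_1g libraries than in any other, by 0.79 ± 0.29 against ground (unadjusted p = 0.0247). RN7SL4P had 6.07, 4.52 and 8.75 CPM in space_microg, 11.8 and 13.7 CPM in space_1g, and 5.17, 7.89 and 10.5 CPM in ground, again with both space_1g libraries on top (0.68 ± 0.34 against ground). The pair correlated at r = 0.97 over the 8 libraries and at 0.30 (RN7SL5P) and 0.39 (RN7SL4P) with RN7SL1. As copies of 7SL, they may share reads with RN7SL1 and RN7SL2, so their values are uncertain. RN7SL5P lies opposite PTPRD and RN7SL4P opposite ANKRD28.

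Among the rest, RN7SKP71 was higher in space_1g than in ground by 0.55 ± 0.28, SNORA55 by 0.62 ± 0.27 and SNORA71B by 0.63 ± 0.35. SNORA71B rested on space_1g replicate 1, with 4.26 CPM against 1.85 CPM in replicate 2, and the difference was 0.19 without it. SNORD49A differed by -0.76 ± 0.26, SNORA54 by -0.72 ± 0.30, SNORA66 by -0.69 ± 0.24 and SNORD17 by -0.63 ± 0.28. SNORD17 had 3.85, 4.29 and 2.35 CPM in space_microg, 3.54 and 2.57 CPM in space_1g, and 6.12, 4.98 and 4.72 CPM in ground. All 5 flown libraries were below the ground libraries for SNORD17.

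Space_microg against space_1g sets weightlessness against the centrifuge within the flight. SNORD114-20 and SCARNA9 were higher in space_microg, together with snoRNAs of TAF1D, and the 7SL and 7SK copies RN7SL5P, RN7SL4P and RN7SKP71 were lower. Limma called 0 members and 0 genes (0% called), the lowest adjusted p among members being 0.912. At an unadjusted p under 0.05 there were 10 members, 4 higher and 6 lower, or 4.74%, beside 1.32% of all genes (0.696% higher and 0.621% lower). EdgeR and DESeq2 called 0 members and 0 genes, with 10 members at that level in edgeR (1.37% of all genes) and 11 in DESeq2 (2.12% of all genes). Groups did not overlap for 25 members that were higher and 18 that were lower, beside 14.2% of all genes (7.24% higher and 6.91% lower). Without the pair of libraries that stood apart, 11 members had an unadjusted p under 0.05, beside 0.867% of all genes, again with 1 space_1g library left.

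The 2 flight groups differed by class in median by -0.13 for RN7SL, -0.11 for RN7SK, 0.10 for SCARNA, 0.01 for SNORA and 0.04 for SNORD symbols, beside -0.03 over all genes. RN7SK itself was at 0.51 ± 0.43 and RN7SL1 at 0.15 ± 0.62. SNORD114-20 differed by 1.24 ± 0.36 (unadjusted p = 0.00799), but by 0.66 without space_1g replicate 1. SCARNA9 differed by 0.95 ± 0.29, RN7SL5P by -0.96 ± 0.29, RN7SL4P by -0.92 ± 0.34, RN7SKP71 by -0.85 ± 0.28, RN7SKP80 by -0.77 ± 0.28 and RN7SKP203 by -0.76 ± 0.32. RN7SKP80 is the RN7SK copy closest to its parent over the aligned stretch, at 93.0% identity (267 of 287 columns), though it has 283 bases against 328. It had 1.6, 2.57 and 2.88 CPM in space_microg, 5.2 and 4.08 CPM in space_1g, and 2.95, 3.27 and 4.63 CPM in ground. Both space_1g libraries were above all 3 space_microg libraries.

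Several snoRNAs within TAF1D followed the level of their host across the libraries. TAF1D encodes a subunit of the factor that starts RNA polymerase I on ribosomal genes, and its span on chromosome 11 holds 8 members (SNORA1, SNORA8, SNORA18, SNORA25, SNORA32, SNORA40, SNORD5 and SNORD6). SNORA8, the member of this group with an unadjusted p under 0.05 and an H/ACA structure, is printed from chr11:93732361-93732499 on the minus strand (GRCh38, GENCODE release 29), and capitals mark the ACA that ends an H/ACA RNA 3 bases before its 3′ end.
SNORA8: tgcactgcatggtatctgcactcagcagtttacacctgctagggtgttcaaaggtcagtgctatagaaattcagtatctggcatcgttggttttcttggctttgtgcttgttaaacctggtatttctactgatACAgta
ACA was searched on the RNA strand in the last 10 bases, where 71.8% of 376 annotated snoRNAs of similar length hold it.

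The 8 TAF1D snoRNAs summed to 34.6, 41.5 and 38.7 CPM in space_microg, 23.5 and 31.7 CPM in space_1g, and 34.5, 33.1 and 24.0 CPM in ground. Every space_microg library was above every other library in this sum, though space_microg replicate 1 exceeded ground replicate 1 by little. TAF1D had 46.3, 53.1 and 43.1 CPM in space_microg, 36.1 and 45.9 CPM in space_1g, and 41.0, 42.4 and 32.8 CPM in ground. Over the 8 libraries SNORA40 followed TAF1D at r = 0.96, SNORA18 at 0.94, SNORA1 at 0.91, SNORA8 at 0.73, SNORD5 at 0.62, SNORA25 at 0.60 and SNORD6 at 0.51, while SNORA32 was at 0.07. An annotated TAF1D exon overlaps 7 of the 8, so reads of the host's retained introns can be counted for either, and their part was not tested.

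SNORA40 had 7.52, 9.86 and 7.61 CPM in space_microg, 5.75 and 8.08 CPM in space_1g, and 6.23, 6.85 and 5.39 CPM in ground. SNORA8 had 6.75, 8.55 and 8.62 CPM in space_microg, 4.58 and 5.14 CPM in space_1g, and 7.25, 5.58 and 4.23 CPM in ground. SNORA8 was above both space_1g libraries in each space_microg library. All 8 were positive between space_microg and space_1g, with a median of 0.43, where 7504 of 16103 genes were positive. SNORD6 had the largest difference, 0.61 ± 0.24 (unadjusted p = 0.0339), with SNORA8 at 0.61 ± 0.26 (unadjusted p = 0.0463). Against ground 7 of 8 were positive in space_microg, with a median of 0.22, and 3 of 8 in space_1g, with a median of -0.15. The TAF1D and MEG8 groups were chosen after values were seen and were given no test of their own.

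**Figure D5:**
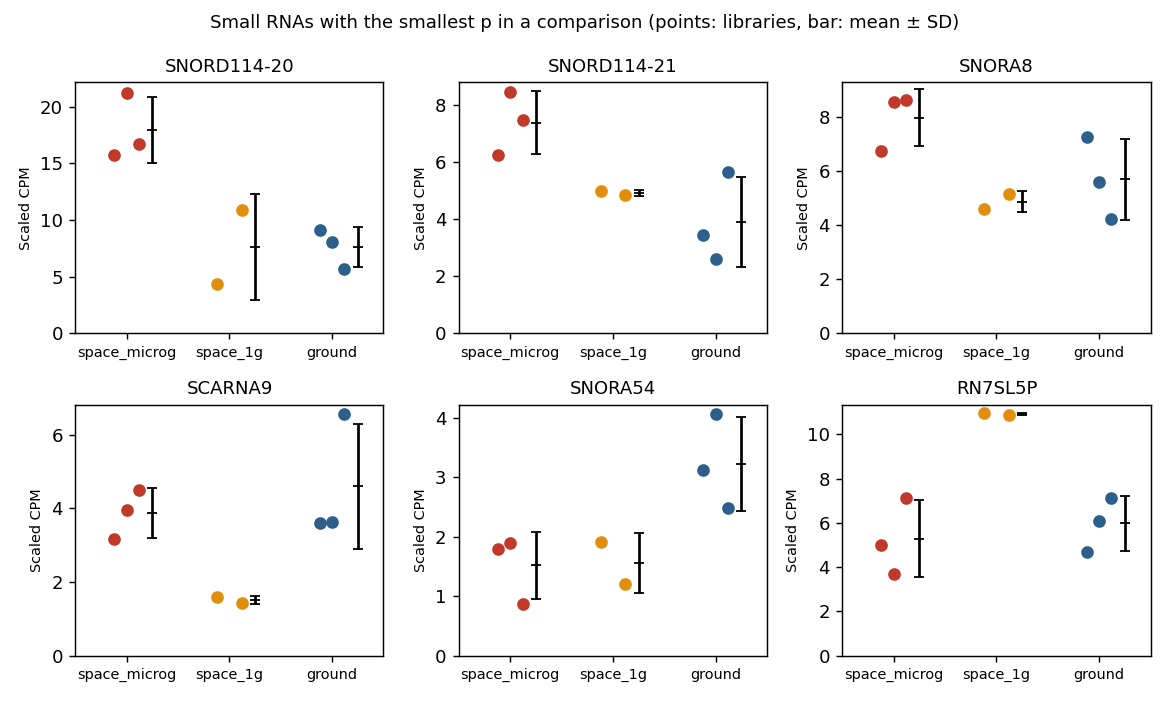
Scaled CPM of 6 named RNAs in each library (points) with the group mean ± SD (bars), in the order space_microg, space_1g and ground. SNORD114-20 is highest in the 3 space_microg libraries (15.8 to 21.2 CPM), SCARNA9 is lowest and RN7SL5P highest in the 2 space_1g libraries, and SNORA54 is highest in the 3 ground libraries.

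Proteins that bind these RNAs were taken from lists, and limma called 0 genes of each list in each comparison. Most Sm and LSm proteins form rings around spliceosomal RNAs. Between space_microg and ground 14 of these 16 proteins were positive, with a median of 0.32, beside -0.02 over all genes. Against space_1g 12 of 16 were positive, with a median of 0.40, and 4 were higher at an unadjusted p under 0.05, beside 0.696% of all genes. Between space_1g and ground 8 of 16 were positive, with a median of -0.03. Their sum was 786, 778 and 1091 CPM in space_microg, 722 and 797 CPM in space_1g, and 776, 664 and 788 CPM in ground. Only space_microg replicate 3 lay above the range of the other groups. SNRPG, a ring subunit, was higher in space_microg by 0.44 ± 0.22 against ground and 0.59 ± 0.24 against space_1g.

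The H/ACA proteins gave a median of 0.14 between space_microg and ground (5 of 6 positive), the C/D box proteins 0.09 (8 of 11), proteins of Cajal bodies and of snRNP assembly 0.08 (14 of 17) and the snRNP-specific proteins -0.05 (7 of 17). Fibrillarin (FBL), the methyltransferase of C/D particles, was at 0.33 ± 0.17. Of the signal recognition particle and its receptor 6 of 8 were positive, with a median of 0.07. SRP9, which binds the end of 7SL that resembles an Alu element, had 221, 258 and 274 CPM in space_microg, 135 and 209 CPM in space_1g, and 216, 185 and 145.1 CPM in ground. It was above all other libraries in each space_microg library, by 0.47 ± 0.21 against ground (unadjusted p = 0.0567). The 7 genes of the 7SK particle and P-TEFb had a median of -0.03, and 21 RNA polymerase III subunits and factors -0.03.

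The other structured RNAs behaved as the abundant members did only in part. RMRP had 518, 526 and 762 CPM in space_microg, 502 and 360 CPM in space_1g, and 294, 241 and 914 CPM in ground. RPPH1 had 621, 525 and 1722 CPM in space_microg, 804 and 516 CPM in space_1g, and 332, 243 and 575 CPM in ground. Ground replicate 3 was thus the highest library for RMRP and not for RPPH1. RPPH1 was higher in space_microg than in ground by 1.20 ± 0.48 (unadjusted p = 0.0349, adjusted p = 0.866 with limma). The host genes of the SNHG family, 22 measured, had a median of -0.06 between space_microg and ground.

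The genes outside the list whose levels were most like those of each class's most abundant member were found by Pearson's r of log2(CPM + 1) over the 8 libraries. For RN7SL1 they were Metazoa_SRP, a row of the same RNA family, at 0.991, PFDN2 at 0.985 and FBXO2 at 0.981. For RN7SK they were ZXDA at 0.980, SCHIP1 and MTX1, for SCARNA2 MEA1 at 0.985, BTBD6 and GFER, and for SNORD3A MRPL52 at 0.945, PRR13 and SNHG5. SNORA40 was most like ATP6V1C1 at 0.984, ZNF25 and HAUS6. RNU7-80P was most like PLAGL1 at 0.992, FGD6 and RPS3AP3, and RNY4P7 most like KIAA1841, LRCH3 and FNIP1, each at 0.985. These values describe 8 shared libraries and were not tested.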

How the data were processed

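RNA of 8 libraries was sequenced from a stranded total RNA kit with ribosomal depletion, per the labels' protocols. Kits of this kind recover very short RNAs poorly as a rule, so levels of snoRNAs need not be those in the cell. The submitters' processing notes list STAR 2.5.3, featureCounts, edgeR, CASAVA 1.8.2 and FastQC, and the builds GRCh38 and hg38, without roles. Settings for strand and shared reads are not given there. The deposited values are a normalised signal, named CPM by the authors, in which each value was a whole number of reads in 100% of cases (tolerance 0.001 read) and whose scaling equalled edgeR's TMM within 5.11e-14. The limit that a count of 0 allows, 3 reads, is 0.0855 to 0.12 CPM and covers counting error only.

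Computed here: limma 3.58.1 (R 4.3.3) on log2(CPM + 1), with a mean trend, all 8 libraries, genes with at least 1 CPM in 2 libraries (16103 genes and 211 of 216 members), two-sided, with Benjamini-Hochberg adjustment over all genes at 0.05. Differences on this scale understate those of low genes. RN7SL812P, RN7SL68P, RNU5E-1, RNU6-60P and SNORD39 did not pass the filter. The steps were tested on simulated data. EdgeR 4.0.16 and DESeq2 1.42.0 on the recovered reads were alternatives. Named are the 3 most abundant symbols of a class and the 5 per direction with the smallest unadjusted p; others were chosen after their values were seen. Members and lists were chosen with earlier results of these data known. Hosts, positions and RNA sequences came from GENCODE release 29. Sequences of some members are not reported here.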

Additional observations from a re-analysis of the deposited data

How the results depend on the processing

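The count of members called stayed at 0 in all 3 comparisons under every alternative run but 1: array weights gave 7 in space_microg against ground, and its iteration did not converge. The count at an unadjusted p under 0.05 was less steady. In space_microg against ground it was 6, with 2 under a filter of 5 CPM (which leaves 18 members), 54 with array weights and 21 without space_1g replicate 1 and ground replicate 3. Leaving out single libraries gave 2 (without space_microg replicate 3 or ground replicate 2) to 17 (without ground replicate 3). In space_1g against ground it was 6, with 1 under the 5 CPM filter, 2 with only the groups compared, 16 with array weights and 14 without both libraries; single libraries gave 3 (without space_1g replicate 1 or ground replicate 1) to 19 (without ground replicate 3). In space_microg against space_1g it was 10, with 3 under the 5 CPM filter and 6 with array weights; single libraries gave 2 (without space_1g replicate 1) to 15, with 4 without space_microg replicate 2 and 6 without space_microg replicate 1. The cause was not tested. The members' median in space_microg against ground was -0.09, with -0.21 (DESeq2) to 0.095 (5 CPM filter) under other settings and -0.19 to 0.001 with single libraries left out; in space_1g against ground it was -0.05, with -0.22 (without both libraries) to -0.025 (pseudocount 4) and -0.16 to 0.067. In space_microg against space_1g it was -0.02, and 0.24 under the 5 CPM filter, with single libraries left out -0.11 to 0.07. The log2 ratio of summed SNORD levels was -0.15 in space_1g against ground (-0.37 to 0.074 with single libraries left out) and 0.23 in space_microg against space_1g (0.013 to 0.45), the ends being those without space_1g replicate 1 or 2.

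Of 636 alternative values for 30 named differences, 0 reversed and 4 came past the threshold, those of RN7SKP268, SNORA54, SNORD114-20 and SNORD114-21 with array weights. The 30 were picked by the smallest unadjusted p in these same libraries, so kept signs were favoured from the outset and lend no support. Replicate numbers gave only 3, 2 and 2 same-numbered pairs in the 3 comparisons, too few to tell whether they pair the libraries. Same-numbered deviations correlated at -0.40, 0.56 and 0.05 between space_microg and ground. The values were -0.68 and 0.60 between space_1g and ground, and 0.68 and 0.20 between the flight groups. The replicate block called 0 members and gave 9 at an unadjusted p under 0.05 in space_microg against ground (6.29% of all genes), 18 in space_1g against ground (4.71%) and 13 in space_microg against space_1g (5.28%). Of the 216 symbols 73 rested on fewer than 30 reads per library, which limits their precision; RN7SL1, RN7SL2 and RN7SK did not, and their SEs were still 0.39 to 0.56 between space_microg and ground.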
